A study of Ovis aries with 4 samples.

Results

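TPM1-high EDNRA/IGFBP7 cells were 2033 of the 38886 cells that had at most 20% mitochondrial UMIs (unique molecular identifiers, 1 per captured transcript) in sheep mammary gland. They were chosen by their own counts, so the genes of the rule are a description and not a finding. A cell was gated when it had at least 1 UMI of EDNRA and at least 1 of IGFBP7, no UMI of CD3E, EPCAM, KDR, SELP, RELN or C1QA, and fewer than 5 of DCN. Of the 3982 gated cells, those with at least 10 TPM1 UMIs per 10000 UMIs of the cell were called TPM1-high, and the other 1949 are the TPM1-low cells they are set against. TPM1-high cells were 51.1% of gated cells and 5.23% of all kept cells.

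The tissue came from 4 lactating ewes, with 1 droplet single-cell library per ewe, 2 at each of 2 stages of lactation. LL is late lactation. LH is the other stage, which the study's design text calls peak lactation; that LH stands for it was read from this pairing alone, as the titles do not spell it out. The labels used here name no breed, age, treatment or genotype for either group. TPM1-high cells numbered 498 and 464 in LL replicates 1 and 2, against 140 and 931 in LH replicates 1 and 2, and the TPM1-low cells numbered 688 and 641 in LL, against 85 and 535 in LH. Each ewe was treated as 1 replicate, and dissociation decides which cells reach a droplet, so shares are those of recovered cells.

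EDNRA encodes the endothelin A receptor, through which endothelin makes vascular smooth muscle contract, and IGFBP7 is a secreted protein abundant in the walls of small vessels. TPM1 encodes an alpha-tropomyosin that lies along actin filaments and, in muscle, regulates access of myosin to actin. In the mammary gland contractile genes are used by vascular smooth muscle, by pericytes around capillaries and by the myoepithelial cells that squeeze milk out of the alveoli under oxytocin.

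TPM1 itself, which set the groups, had 2479 and 2315 CPM (UMIs of the gene scaled to a common total) in TPM1-high cells of LL replicates 1 and 2 and 2598 and 3238 CPM in those of LH replicates 1 and 2. TPM1-low cells had 371 and 320 CPM in LL and 381 and 382 CPM in LH. The median TPM1-high cell had 20.2 and 19.0 TPM1 UMIs per 10000 in LL, against 24.2 and 26.1 in LH. There was no gap at the threshold: 109 cells lay just inside it, at 10 to 11 per 10000, and 132 just outside it, at 9 to 10. A single TPM1 UMI was enough for 35 of the 2033 cells, 26 of them in LH replicate 2.

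Median depth was 3152 and 2556 UMIs per TPM1-high cell in LL, against 3734 and 3038 in LH. TPM1-low cells had medians of 3102 and 2244 UMIs in LL and 3379 and 2348 in LH, so the cell groups differed less in depth than the libraries did. TPM1-high cells gave 557434 to 2901185 UMIs per library, the fewest in LH replicate 1. Pairs of libraries shared 15 to 39 cell barcodes, and no shared barcode was a TPM1-high cell in both libraries. Only 774 of the 20150 genes in the files carried a symbol, so many genes of the pathways below could not be read by name.

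The label "contractile" rested on few genes. Of 71 contractile and actin-associated genes listed, 5 beside TPM1 had a symbol, and of 41 pericyte and vascular smooth muscle markers, 2 had one, CNN1 and RGS4. CNN1, which encodes the actin-binding protein calponin of smooth muscle, was high. RGS4, a regulator of G-protein signalling found in some pericytes, had 0 CPM in 3 libraries and 1.03 CPM in LH replicate 2. Of 24 myoepithelial markers 4 had a symbol, CNN1, OXTR and SFN among them. OXTR, the oxytocin receptor of myoepithelium, had 0 of 6458808 UMIs in TPM1-high cells, which allows a level of up to 0.464 CPM. Pericytes, vascular smooth muscle and myoepithelium therefore cannot be told apart by these names, and the cells are called by their rule.

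Markers of other cell types differed in level. The 5 fibroblast markers with a symbol had the highest sum in TPM1-high cells, nearly all of it GSN, at 833 and 805 CPM in TPM1-high cells of LL and 603 and 659 CPM in those of LH, against 1723 and 1172 CPM in TPM1-low cells of LL and 798 and 1247 CPM in those of LH. GSN alone had 7858.5 to 10364 CPM in cells with at least 5 DCN UMIs and 289 to 814 CPM in EPCAM-positive cells. LYZ and CD3D had no UMI in TPM1-high cells, SELE had 2 and TPSB2 had 1. The summed level of the myeloid markers with a symbol was at most 7.54 CPM, of the lymphatic endothelial ones at most 4.06 CPM, and of the cycling ones at most 3.92 CPM. The 8 T cell and lymphocyte markers with a symbol summed to 26.1 and 41.6 CPM in LL and 59.2 and 57.9 CPM in LH in TPM1-high cells, most of it XCL1. In the TPM1-low cells these sums were 72.1 and 119 CPM in LL and 168 and 49.8 CPM in LH. Luminal epithelial markers, 11 with a symbol, summed to 84.1 and 168 CPM in TPM1-high cells of LL and 98.7 and 191 CPM in those of LH. In TPM1-low cells they summed to 108 and 207 CPM in LL and 853 and 402 CPM in LH, so the luminal sum was lower in TPM1-high cells in each library and stood out in TPM1-low cells of LH replicate 1.

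The share of gated cells that were TPM1-high was 42.0% and 42.0% in LL (exact 95% intervals 39.2% to 44.9% and 39.1% to 45.0%), against 62.2% and 63.5% in LH (55.5% to 68.6% and 61.0% to 66.0%). Both LL libraries lay below both LH libraries. The means differed by -20.9 percentage points (LL minus LH), with an exact two-sided permutation p of 0.333 over 6 arrangements, the smallest that 2 libraries a stage allow. When every cell was thinned to 2000 UMIs before gating, the shares were 50.4% and 54.5% in LL, against 65.5% and 71.7% in LH. Thinning left out gated cells under that depth, 347 TPM1-high and 529 TPM1-low. The gate was applied to the thinned counts, so other cells could also leave or enter it. After thinning, 756 and 598 cells were gated in LL, against 142 and 912 in LH. With FABP4-positive cells left out of the TPM1-low cells alone, 273 and 240 cells in LL and 12 and 60 in LH, the shares were 54.5% and 53.6% in LL, against 65.7% and 66.2% in LH, and the difference shrank to -11.9 points. A lower TPM1 level in LL in a wider group of these cells was already known from the same libraries, so this order of shares is not independent of it. The intervals cover counting error only.

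Over all kept cells the order was lost. TPM1-high cells were 3.94% and 4.21% of kept cells in LL, against 2.39% and 9.95% in LH. The LH libraries lay on either side of the LL libraries, and the difference of means was -2.10 points with an exact two-sided permutation p of 1. Without LH replicate 2 the difference turned to 1.68 points, and without LH replicate 1 it was -5.87 points.

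**Figure D1:**
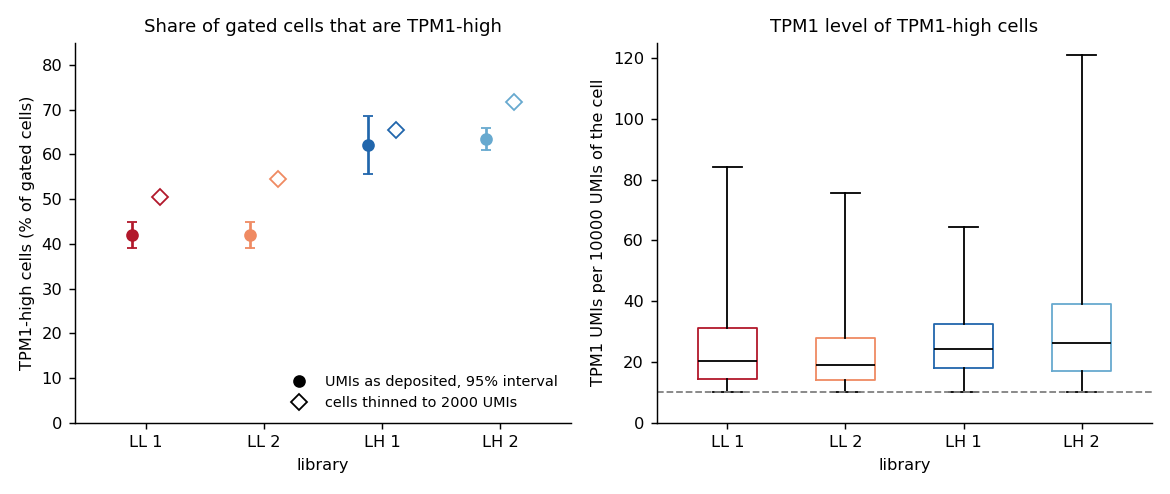
Left, TPM1-high cells as a percentage of gated cells in each library, as deposited (filled circles, exact 95% binomial interval) and after thinning to 2000 UMIs (open diamonds). Right, TPM1 UMIs per 10000 UMIs of the cell in TPM1-high cells (box, quartiles; line, median; whiskers, full range; dashed line, the threshold of 10). The LL libraries had 42.0% each and the LH libraries 62.2% and 63.5%, and the medians of TPM1 were 20.2 and 19.0 in LL against 24.2 and 26.1 in LH.

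Genes were then described between TPM1-high and TPM1-low cells of the same library. No test was run, because the rule split these cells by a gene of the same matrix. A gene was counted when it averaged at least 20 CPM and was at least 1.5-fold higher, or lower, in all 4 libraries on the CPM + 1 scale, which understates the change of low genes. Of 5968 genes, 172 were counted as higher (2.88%) and 252 as lower (4.22%). Among the 297 of these genes that had a symbol, 4 were higher (1.35%) and 20 were lower (6.73%). The median log2 ratio was -0.06 over all genes and -0.08 over genes with a symbol. Genes used by the gate were left out of all counts.

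CNN1 had 148 and 118 CPM in TPM1-high cells of LL and 135 and 105 CPM in those of LH, against 16.1 and 20.6 CPM in TPM1-low cells of LL and 26.2 and 8.91 CPM in those of LH. The groups did not overlap, and the mean log2 ratio was 2.83 ± 0.53 (SD, n = 4 libraries), a 7.11-fold difference and the largest among genes with a symbol that were counted. With cells thinned to 2000 UMIs, CNN1 was seen in 22.0%, 17.9%, 22.5% and 16.3% of TPM1-high cells of LL replicates 1 and 2 and LH replicates 1 and 2. In TPM1-low cells these shares were 3.47%, 5%, 5.26% and 1.72% in the same order. CD3E-positive cells, T cells that should lack calponin, gave 0.640%, 0.550%, 0.291% and 0.430%, a measure of free RNA. Unthinned, the shares of TPM1-high cells were 28.5%, 19.8%, 32.1% and 19.9%, so most TPM1-high cells had no CNN1 UMI at this depth.

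Within the gated cells CNN1 followed TPM1 step by step. In LL replicate 1 it had 6.40, 35.2, 63.2, 204 and 285 CPM in cells with 0 to 5, 5 to 10, 10 to 20, 20 to 40 and at least 40 TPM1 UMIs per 10000. The corresponding levels in LH replicate 2 were 8.32, 9.90, 28.5, 100.2 and 195 CPM. All 4 libraries increased at each step, and 3 of the 5 bins lie inside the TPM1-high cells. The top bin held 64, 41, 13 and 223 cells in LL replicates 1 and 2 and LH replicates 1 and 2, so its value in LH replicate 1 rests on few cells. Both genes come from the same cells and share their depth, and no test was made.

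3 other genes with a symbol were counted as higher. ACTB, the cytoplasmic beta-actin, had 842 and 1004 CPM in TPM1-high cells of LL and 730 and 656 CPM in those of LH, against 391 and 534 CPM in TPM1-low cells of LL and 336 and 396 CPM in those of LH. HACD1, a dehydratase of very-long-chain fatty acid elongation found in muscle, had 48.7 and 61.2 CPM in TPM1-high cells of LL and 57.4 and 76.5 CPM in those of LH, against 21.2 and 33.4 CPM in TPM1-low cells of LL and 13.1 and 39.4 CPM in those of LH. ST7 averaged 95.3 ± 20.6 CPM in TPM1-high cells and 50.7 ± 16.6 CPM in TPM1-low cells (SD, n = 4 libraries). The mean log2 ratios were 0.96 for ACTB, 1.25 for HACD1 and 0.93 for ST7, and every library of TPM1-high cells was above its own TPM1-low cells. Of these, ACTB is used by most cells, and its level in C1QA-positive cells, 760.5 to 1143 CPM, reached that of the TPM1-high cells.

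SLC25A4, the mitochondrial ADP/ATP carrier of heart and skeletal muscle and 1 of the markers given for these cells, had 933 and 657 CPM in TPM1-high cells of LL and 439.5 and 540.5 CPM in those of LH. TPM1-low cells had 562 and 414 CPM in LL and 210 and 371 CPM in LH. It was higher in TPM1-high cells in 4 of 4 libraries, at a mean log2 ratio of 0.75 ± 0.22, but fell short of 1.5-fold in LH replicate 2 and was not counted. A UMI of it was found in 82.0%, 67.1%, 52.7% and 60.4% of thinned TPM1-high cells and in 62.5%, 53.1%, 35.5% and 53.4% of thinned TPM1-low cells, in LL replicates 1 and 2 and LH replicates 1 and 2. CD3E-positive cells gave 7.09% to 13.4%. SLC25A4 was thus a gene of the whole gate, higher towards the TPM1-high side.

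No gene of energy metabolism was counted. Of 112 genes listed, SLC25A4 included, 16 had a symbol and enough counts, 0 were higher and 0 lower by the rule, and their median log2 ratio was 0.11, against -0.06 over all genes. 8 of the 16 were higher in TPM1-high cells in all 4 libraries and 2 were lower in all 4. ATP5PD, a subunit of the ATP synthase stalk, had 496 and 586 CPM in TPM1-high cells of LL and 522 and 551 CPM in those of LH, against 408 and 417 CPM in TPM1-low cells of LL and 465 and 453 CPM in those of LH.

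**Figure D2:**
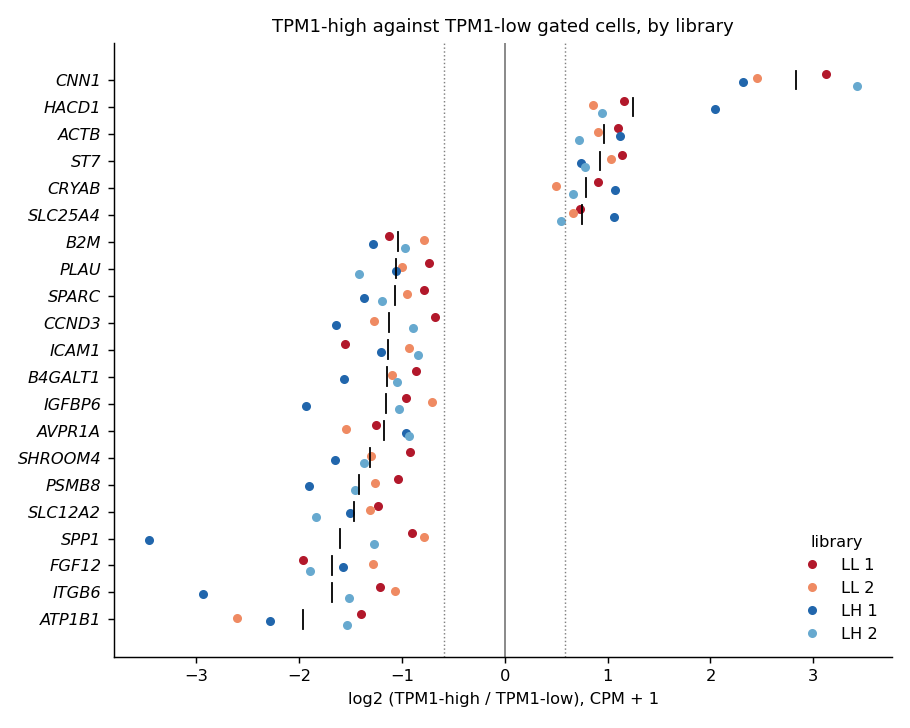
Log2 ratio of TPM1-high to TPM1-low cells within each library (points, CPM + 1; vertical tick, mean of 4 libraries) for the genes with a symbol that were higher in all 4 libraries, for CRYAB and SLC25A4, and for the 15 genes with the lowest mean ratio among those counted as lower. Dotted lines mark 1.5-fold. CNN1 lay far to the right of the other genes, at a mean of 2.83, and SPP1 and ITGB6 had their lowest ratios in LH replicate 1.

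None of the other contractile and actin-associated genes reached the fold of CNN1. CRYAB, a small heat shock protein of muscle and epithelium, had 766 and 514 CPM in TPM1-high cells of LL and 549 and 608 CPM in those of LH, against 409 and 363 CPM in TPM1-low cells of LL and 260 and 383 CPM in those of LH. It was above in 4 of 4 libraries but under 1.5-fold in LL replicate 2. CAV1, the main protein of caveolae, was above in 4 of 4 libraries by a small margin, with a mean log2 ratio of 0.19, and CFL1, an actin-severing cofilin, had a ratio of -0.02. GSN, an actin-severing protein that is also a fibroblast marker, was lower in TPM1-high cells in 4 of 4 libraries, at 720 ± 108 CPM against 1227 ± 373 CPM in TPM1-low cells (SD, n = 4 libraries). Of the 5 genes of the list beside TPM1, 1 was counted as higher and 0 as lower, with a median log2 ratio of 0.19.

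Of the vasoactive receptors, AVPR1A was lower in TPM1-high cells. AVPR1A, the vasopressin receptor that constricts vessels, had 17.4 and 18.0 CPM in TPM1-high cells of LL and 8.97 and 35.8 CPM in those of LH, against 42.8 and 54.6 CPM in TPM1-low cells of LL and 18.4 and 69.1 CPM in those of LH. It was the 1 gene of 5 with a symbol in this list that reached 20 CPM, and it was counted as lower. AGTR1, the angiotensin II receptor, had 4.06 and 2.35 CPM in TPM1-high cells of LL and 0 and 2.41 CPM in those of LH, against 37.3 and 25.5 CPM in TPM1-low cells of LL and 2.62 and 40.1 CPM in those of LH. AGTR1 lay under the 20 CPM minimum, and its values were seen before it was singled out. AGTR1 was not particular to the gate, with 31.0 to 73.9 CPM in cells with at least 5 DCN UMIs. Its thinned shares were 0.668%, 0.865%, 0% and 0.526% in TPM1-high cells, 6.25%, 4.05%, 0% and 8.05% in TPM1-low cells and 0.640%, 0.183%, 0% and 0% in CD3E-positive cells of LL replicates 1 and 2 and LH replicates 1 and 2. EDNRA, required by the gate, had 569 and 717 CPM in TPM1-high cells of LL and 630 and 677 CPM in those of LH, against 478 and 631 CPM in TPM1-low cells of LL and 496 and 635 CPM in those of LH, higher in 4 of 4 libraries by a small margin. IGFBP7, also required by the gate, had 1383 and 1186 CPM in TPM1-high cells of LL and 1098 and 2123 CPM in those of LH. Its levels in TPM1-low cells were 2120 and 1331 CPM in LL and 1223 and 2632 CPM in LH. IGFBP7 was thus lower in TPM1-high cells in 4 of 4 libraries, at a mean log2 ratio of -0.31.

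IGFBP6 and 3 genes of matrix and its turnover, TIMP1, SPARC and PLAU, were counted as lower in TPM1-high cells. IGFBP6, a binding protein with a preference for IGF-II, had 535 and 466 CPM in TPM1-high cells of LL and 386 and 532 CPM in those of LH, against 1043 and 762 CPM in TPM1-low cells of LL and 1475 and 1081 CPM in those of LH. TIMP1, an inhibitor of matrix metalloproteinases, had 446 and 280 CPM in TPM1-high cells of LL and 210 and 341 CPM in those of LH, against 795 and 531 CPM in TPM1-low cells of LL and 512 and 709 CPM in those of LH. SPARC, a collagen-binding secreted protein, averaged 99.7 ± 19.1 CPM in TPM1-high cells and 209.9 ± 33.8 CPM in TPM1-low cells, and PLAU, the urokinase plasminogen activator, averaged 56.0 ± 27.1 CPM and 116 ± 49.6 CPM in the same order (SD, n = 4 libraries). For each of the 4 genes the TPM1-high cells were below the TPM1-low cells of the same library, by mean log2 ratios of -1.16, -1.02, -1.07 and -1.05. In the list of matrix degradation genes and inhibitors, 7 had a symbol and enough counts; 2 of them were counted as lower, where 4.22% of all genes were, and 0 as higher, and the median log2 ratio was -0.97, against -0.06 over all genes.

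TIMP1 and IGFBP6 differed across the TPM1 bins of gated cells. TIMP1 in LL replicate 1 had 835, 717, 512, 417 and 302 CPM over the 5 TPM1 bins from lowest to highest, and in LH replicate 2 it had 767, 612, 491, 313 and 225 CPM. IGFBP6 in LH replicate 2 had 1175, 923, 830, 472 and 311 CPM over the same bins. Both had their lowest level in the top bin in all 4 libraries, although IGFBP6 in LL replicate 1 was higher in the second bin, at 1091 CPM, than in the first, at 1019 CPM. SPARC was lowest in the top bin in 3 of 4 libraries, and in LH replicate 1 it had 234, 217, 107, 73.7 and 95.3 CPM. TIMP1 and IGFBP6 are also abundant elsewhere, and DCN-rich cells, which had at least 5 DCN UMIs, had 724 to 1589 CPM of TIMP1 and 1261 to 2550 CPM of IGFBP6.

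**Figure D3:**
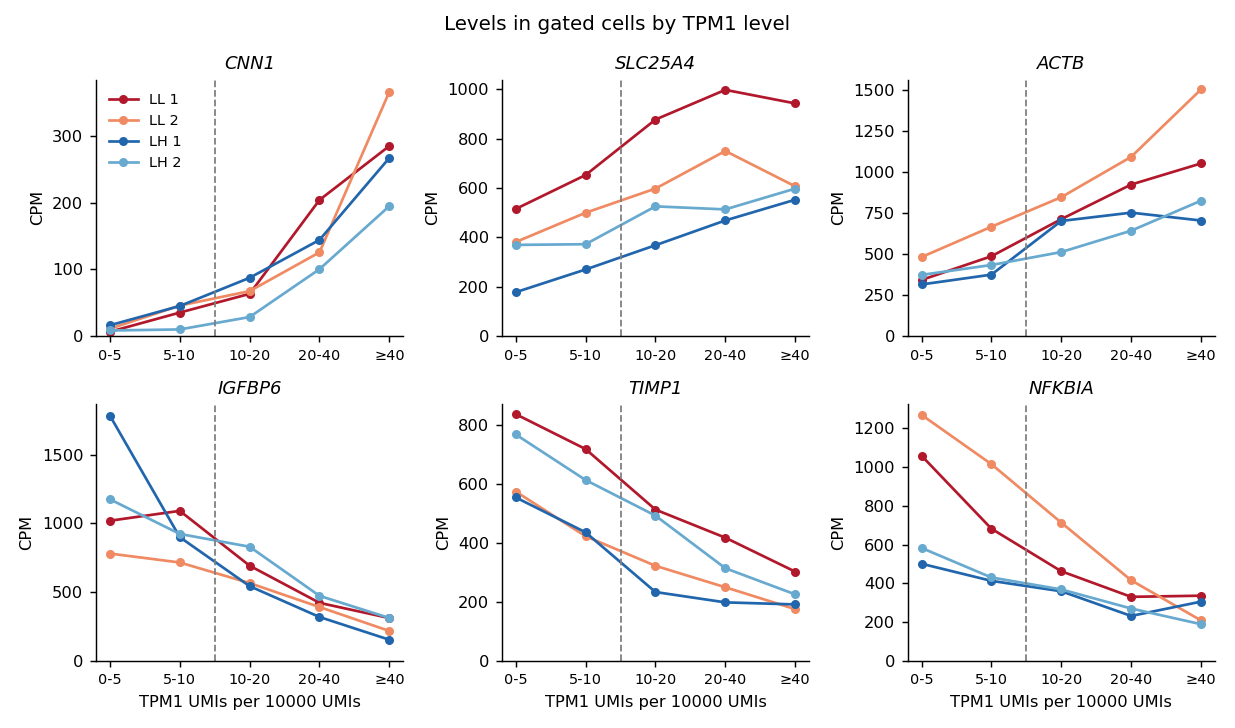
CPM of 6 genes in gated cells of each library, by TPM1 UMIs per 10000 UMIs of the cell (0 to 5, 5 to 10, 10 to 20, 20 to 40 and at least 40; dashed line, the threshold of 10). CNN1 had its highest level in the bin of at least 40 in every library, and TIMP1 its lowest; that bin held 13 cells in LH replicate 1.

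NFKBIA, ICAM1 and IRF1 of the cytokine and NF-kappa-B list were counted as lower, and so were PSMB8 and B2M, which are in none of the lists. NFKBIA, the inhibitor that NF-kappa-B induces, had 394 and 552 CPM in TPM1-high cells of LL and 285 and 276 CPM in those of LH, against 932 and 1199 CPM in TPM1-low cells of LL and 470 and 525 CPM in those of LH. Outside the gate, C1QA-positive cells had 3465 to 5773 CPM of NFKBIA and CD3E-positive cells 901 to 1268 CPM. EPCAM-positive cells had 815 to 1142 CPM of it and DCN-rich cells 308 to 463 CPM. PSMB8, an immunoproteasome subunit, averaged 44.7 ± 3.43 CPM in TPM1-high cells, with little spread between libraries, and 124 ± 34.2 CPM in TPM1-low cells (SD, n = 4 libraries). B2M, the light chain of MHC class I, averaged 97.5 ± 14.3 CPM in TPM1-high cells and 203 ± 40.9 CPM in TPM1-low cells, and ICAM1, a leukocyte adhesion molecule, averaged 28.2 ± 11.9 CPM and 63.3 ± 23.6 CPM in the same order (SD, n = 4 libraries). IRF1, an interferon-induced transcription factor, had a mean log2 ratio of -0.97. Of 8 cytokine and NF-kappa-B genes with a symbol and enough counts, 3 were counted as lower (NFKBIA, ICAM1 and IRF1) and 0 as higher, with a median log2 ratio of -0.35, where 4.22% of all genes were counted as lower at a median of -0.06. The T cell and lymphocyte markers summed lower in TPM1-high cells in 3 of 4 libraries, and their part in these values was not tested.

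Membrane transporters and other genes were also counted as lower. CD52 was among them, at a mean log2 ratio of -0.95. SLC12A2, a sodium, potassium and chloride cotransporter, had 51.0 and 75.3 CPM in TPM1-high cells of LL and 104 and 73.4 CPM in those of LH, against 121 and 187 CPM in TPM1-low cells of LL and 297 and 264 CPM in those of LH. FGF12, an intracellular FGF homologous factor that binds sodium channels, averaged 27.6 ± 10.9 CPM in TPM1-high cells and 90.2 ± 32.2 CPM in TPM1-low cells (SD, n = 4 libraries). Both were lower in 4 of 4 libraries, by mean log2 ratios of -1.47 and -1.67. SHROOM4, a cytoskeletal protein, and B4GALT1, the galactosyltransferase that joins alpha-lactalbumin in lactose synthesis, had ratios of -1.31 and -1.14, and CCND3, a D-type cyclin, had -1.12.

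Some of the genes counted as lower are prominent in mammary epithelium, ATP1B1, ITGB6 and SPP1 among them. SLC12A2 also had 234 to 409 CPM in EPCAM-positive cells, against 121 to 297 CPM in TPM1-low cells. The part of epithelial RNA in the SLC12A2 values was not tested. ATP1B1, a sodium pump subunit, had a mean log2 ratio of -1.96, which was -0.87 without cells that had a UMI of a luminal marker and -0.41 with cells thinned to 2000 UMIs. ITGB6, an epithelial integrin subunit, had -1.68, which was -0.74 without those cells and -0.04 with thinned cells. SPP1, the secreted phosphoprotein osteopontin, had 10.4 and 19.6 CPM in TPM1-high cells of LL and 70.0 and 115 CPM in those of LH, against 20.4 and 34.6 CPM in TPM1-low cells of LL and 777 and 278 CPM in those of LH. SPP1 is itself a luminal marker. Its mean log2 ratio of -1.60 was -0.29 with thinned cells. For these thinned ratios the cells were gated again on the thinned counts, so they are not the same cells. Thinned shares keep the gate made before thinning. TPM1-high cells with an SPP1 UMI were 0.668%, 3.46%, 5.43% and 17.3% in LL replicates 1 and 2 and LH replicates 1 and 2. TPM1-low cells gave 1.04%, 5%, 22.4% and 25% in the same order. CD3E-positive cells gave 1.41%, 3.85%, 2.67% and 17.0%, so the share in TPM1-high cells was at or about that background in all libraries but LH replicate 1.

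Some genes outside these groups stood beside CNN1. BTG2, an antiproliferative immediate early gene, was higher in TPM1-high cells in 4 of 4 libraries at a mean log2 ratio of 0.85, just under 1.5-fold in LL replicate 2. INHBA, the activin A subunit, had 16.2 and 14.9 CPM in TPM1-high cells of LL and 17.9 and 27.6 CPM in those of LH, against 1.27 and 4.85 CPM in TPM1-low cells of LL and 5.25 and 2.23 CPM in those of LH. INHBA lay under the 20 CPM minimum and was chosen after its values were seen. Of 9 immediate early and growth arrest genes with enough counts, 5 were higher in all 4 libraries and 1 was lower in all 4, none by 1.5-fold throughout, with a median log2 ratio of 0.31. Among genes without a symbol, ENSOARG00000012108 had the highest mean log2 ratio of those counted, at 3.21, and ENSOARG00000008389 followed at 2.86. ENSOARG00000009627 had the lowest, at -3.29, followed by ENSOARG00000019747 at -3.06.

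The remaining lists held few genes past the fold rule. Of 9 fatty acid genes with enough counts none was counted, with a median log2 ratio of -0.14; PLIN2, which coats lipid droplets, had 78.8 and 95.7 CPM in TPM1-high cells of LL and 71.8 and 128 CPM in those of LH, against 47.1 and 64.3 CPM in TPM1-low cells of LL and 44.6 and 83.9 CPM in those of LH. It was higher in 4 of 4 libraries. Of 8 growth factor and receptor genes none was counted, with a median of -0.05, and FGF7, a growth factor that acts on epithelium, was above in 4 of 4 libraries at a mean log2 ratio of 0.50. Of 3 genes of the IGF system 1 was counted as lower, IGFBP6, with a median of 0.20. Of 2 genes of matrix and secreted stroma 1 was counted as lower, SPARC, with a median of -0.65. Among 5 circadian clock genes none was counted, with a median of -0.22. Of 3 calcium and ion genes 1 was counted as lower, ATP1B1, and CALM2, a calmodulin gene, was higher in 4 of 4 libraries at a mean log2 ratio of 0.46. The medians given here stand against -0.06 over all genes.

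The TPM1-low cells include cells with and without FABP4, a fatty acid carrier of adipocytes and capillary endothelium. FABP4 had 88.1 and 165 CPM in TPM1-high cells of LL and 55.6 and 26.5 CPM in those of LH, against 514 and 391 CPM in TPM1-low cells of LL and 65.6 and 90.6 CPM in those of LH. It was seen in 14.7%, 27.2%, 15% and 5.59% of TPM1-high cells of LL replicates 1 and 2 and LH replicates 1 and 2. CNN1 had 12.9, 19.2, 26.4 and 9.29 CPM in the 1364 TPM1-low cells without FABP4, and 20.1, 22.8, 24.7 and 6.19 CPM in the 585 with it, in the same order. Both kinds of TPM1-low cell were thus far below the TPM1-high cells in CNN1.

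Across the gates outside the EDNRA/IGFBP7 cells, CNN1 was at most 29.5 CPM, in RELN-positive cells of LH replicate 1, and SLC25A4 was at most 373 CPM, in RELN-positive cells of LH replicate 2. TPM1-high cells had at least 105 CPM of CNN1 and at least 439.5 CPM of SLC25A4, but for SLC25A4 the TPM1-low cells, at up to 562 CPM, overlapped with them. AVPR1A ranged from 8.97 to 35.8 CPM in TPM1-high cells, while CD3E-positive, EPCAM-positive and DCN-rich cells had at most 4.78 CPM. RELN-positive cells reached 45.1 CPM, C1QA-positive cells 15.1 CPM and KDR- or SELP-positive cells 13.2 CPM. CRYAB was not particular to the gate, with 908 to 1943 CPM in EPCAM-positive cells. These levels are a description, since the cells were picked on their counts.

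**Figure D4:**
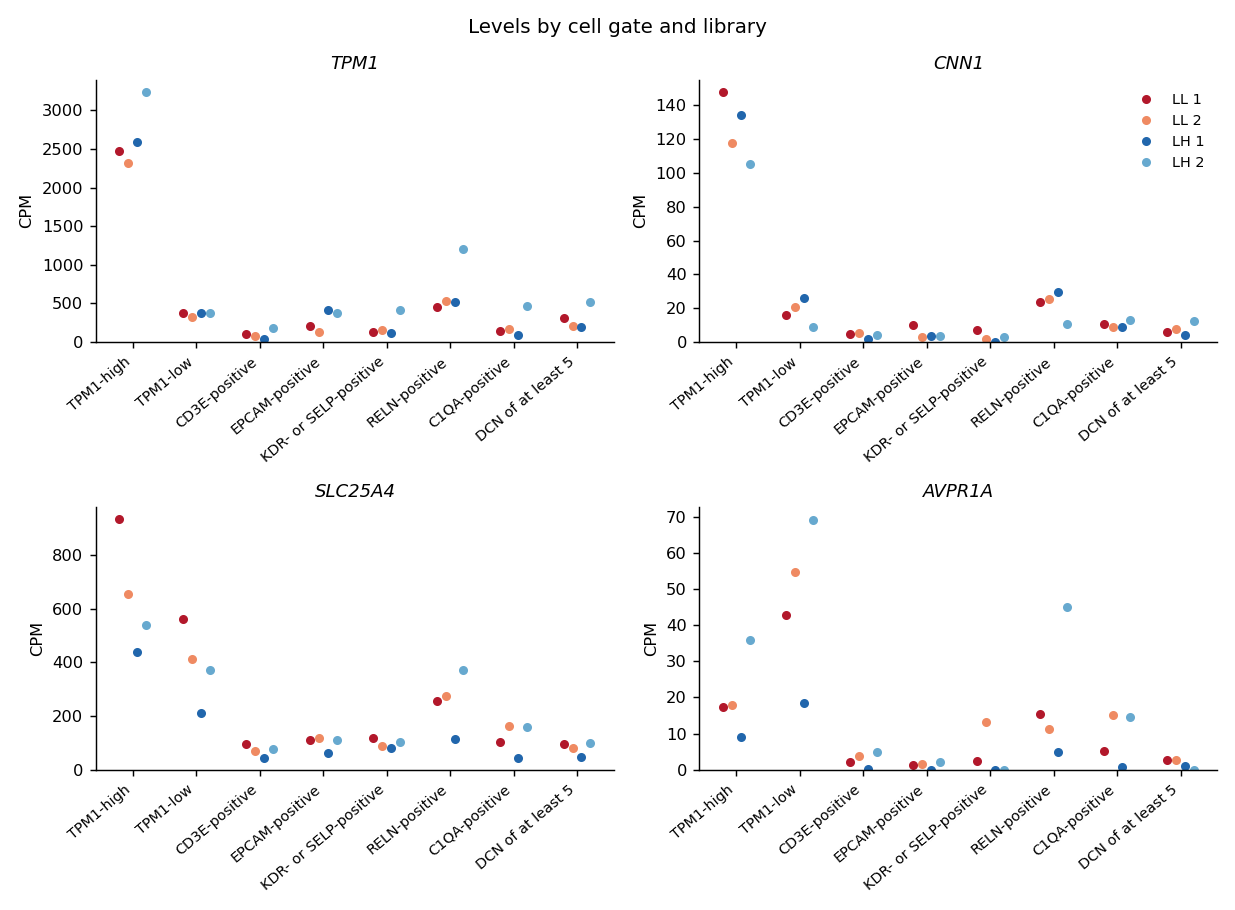
CPM of TPM1, CNN1, SLC25A4 and AVPR1A in TPM1-high and TPM1-low cells and in cells positive for genes that mark other gates, by library (points). CNN1 reached at least 105 CPM in TPM1-high cells and at most 29.5 CPM in the other gates shown, TPM1-low cells included, whereas AVPR1A was higher in TPM1-low than in TPM1-high cells of each library.

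LL was compared with LH within TPM1-high cells, which the rule did not use. UMIs were summed per library and tested with edgeR's quasi-likelihood test, TMM scaling and Benjamini-Hochberg adjustment over 8587 genes. 3 genes passed an adjusted p of 0.05 (0.0349%), 1 higher and 2 lower in LL, and 577 had an unadjusted p under 0.05. Libraries of the stages did not overlap for 37.2% of the genes tested, which is the background for the values below. The count of 3 rested on the choice of libraries: it was 5 without LL replicate 1, 5 without LL replicate 2, 90 without LH replicate 1 and 28 without LH replicate 2. DESeq2 called 18 genes.

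The 3 genes have no symbol in the files. ENSOARG00000002980 had 147 and 150 TMM-scaled CPM in LL, against 0 and 0.680 in LH (edgeR adjusted p = 0.000356). Its UMIs were 248 and 191 in LL, against 0 and 2 in LH, a ratio of 253 with an exact counting interval of 69.6 to 2096 that leaves out the difference between ewes. ENSOARG00000008961 had 27.9 and 22.7 scaled CPM in LL, against 178 and 192 in LH, a log2 difference of -2.87 ± 0.22 (SE; adjusted p by edgeR = 0.00422). ENSOARG00000000563 had 23.1 and 25.9 scaled CPM in LL, against 164 and 114 in LH, a log2 difference of -2.46 ± 0.26 (SE; adjusted p by edgeR = 0.0324). The first pair passed in all 19 other settings tried, with adjusted p up to 0.00461 and 0.0354, and the last in 16 of 19, the misses being the fits that left out LL replicate 1 (adjusted p = 0.153) or LL replicate 2 (0.0820) and the TPM1 threshold of 20 (0.213). With 2 ewes a stage, a gene that differs between single animals cannot be told apart from one that differs between stages.

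None of the 380 genes with a symbol passed (0 by edgeR, 4 by DESeq2; the unadjusted p was under 0.05 for 40). The stages did not overlap for 149 of them (39.2%, against 37.2% of all genes tested). The genes named next are the 12 with the lowest p among those with at least 20 CPM and no overlap.

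Growth arrest and RNA decay genes were higher in LL without passing. BTG2 had 1714 and 1251 scaled CPM in LL, against 559.6 and 701 in LH, a log2 difference of 1.23 ± 0.23 (SE; adjusted p by edgeR = 0.313). CDKN1A, the cyclin-dependent kinase inhibitor p21, had 846 and 533 in LL, against 288 and 315 in LH, a log2 difference of 1.19 ± 0.25 (SE; adjusted p by edgeR = 0.357). ZFP36, which destabilises inflammatory mRNAs, had 4752 and 4117 in LL, against 2753 and 2333 in LH, a log2 difference of 0.80 ± 0.19 (SE; adjusted p by edgeR = 0.473). DESeq2 gave adjusted p of 0.00175 for BTG2, 0.0182 for CDKN1A and 0.141 for ZFP36; over all settings tried the adjusted p ran from 7.98e-06 to 0.994, from 4.15e-05 to 0.994 and from 0.00475 to 1.000. Of the immediate early and growth arrest list, 9 of the 10 genes tested were above 0, with a median log2 change of 0.26 against -0.01 over all genes. The order of BTG2, CDKN1A and ZFP36 was not particular to TPM1-high cells. In TPM1-low cells BTG2 had 951 and 837 CPM in LL, against 247 and 391 CPM in LH. There CDKN1A had 790 and 551 CPM in LL, against 234 and 374 CPM in LH. ZFP36 had 3546 and 3402 CPM in TPM1-low cells of LL, against 1276 and 1988 CPM in those of LH.

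Cytokine genes lay on both sides without passing. IL18, an inflammasome cytokine, had 45.7 and 37.6 scaled CPM in LL, against 96.7 and 135 in LH, a log2 difference of -1.51 ± 0.24 (SE; adjusted p by edgeR = 0.173). IL15, a cytokine that sustains lymphocytes, had 11.3 and 14.1 in LL, against 29.7 and 36.4 in LH (log2 change -1.43; edgeR adjusted p = 0.450), and IL6 had 32.0 and 51.7 in LL, against 7.44 and 17.7 in LH (log2 change 1.48; edgeR adjusted p = 0.535). IL18 and IL15 lay lower in LL and IL6 higher, with no overlap for any of the 3. DESeq2 gave IL18 an adjusted p of 0.0411, and over all settings tried it ran from 2.80e-06 to 0.506 for IL18, from 0.0288 to 1.000 for IL15 and from 0.00653 to 1.000 for IL6. Of 12 cytokine and NF-kappa-B genes tested, 0 passed, 8 were above 0 and 4 below. IL18 was not particular to these cells. EPCAM-positive cells had 257 to 326 CPM of it, C1QA-positive cells 260 to 375 CPM and CD3E-positive cells 22.4 to 37.6 CPM. In TPM1-low cells IL18 had 25.9 and 21.8 CPM in LL, against 110 and 72.8 CPM in LH. The part of free RNA in the IL18 values was not tested.

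SPP1 had 10.7 and 19.6 scaled CPM in LL, against 72.5 and 113 in LH, a log2 difference of -2.70 ± 0.35 (SE; adjusted p by edgeR = 0.0762, DESeq2 adjusted p = 2.99e-05, 3.49e-15 to 0.356 over all settings tried). In CD3E-positive cells SPP1 had 17.5 and 25.5 CPM in LL, against 16.9 and 122 CPM in LH, so in 3 of 4 libraries the level in TPM1-high cells was at or below that of the CD3E-positive cells, LH replicate 1 being the exception. XCL1, a chemokine of lymphocytes, had 17.8 and 27.4 in LL, against 53.9 and 55.4 in LH (log2 change -1.29; edgeR adjusted p = 0.450, 0.0111 to 0.994 over all settings tried), with 1415 to 2462 CPM in CD3E-positive cells. The part of free RNA in these values was not tested. ASIP, which encodes agouti signalling protein, had 157 and 138 in LL, against 218 and 470 in LH (log2 change -1.25; edgeR adjusted p = 0.523, 4.15e-05 to 1.000 over all settings tried), and was found in every gate, from 79.2 to 324 CPM in CD3E-positive cells to 235 to 875 CPM in DCN-rich cells.

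FABP4 had 90.2 and 165 scaled CPM in LL, against 57.6 and 26.2 in LH, a log2 difference of 1.81 ± 0.41 (SE; adjusted p by edgeR = 0.450, 6.38e-09 to 0.953 over all settings tried). FHL1, a LIM-domain protein of muscle, had 35.0 and 27.4 in LL, against 7.44 and 14.3 in LH (log2 change 1.34; edgeR adjusted p = 0.560, 0.0531 to 1.000 over all settings tried). RACK1, a scaffold protein of the small ribosomal subunit, had 1005 and 1271 in LL, against 1803 and 1966 in LH (log2 change -0.73; edgeR adjusted p = 0.534, 0.0414 to 1.000 over all settings tried). FABP4 also had higher levels in LL in TPM1-low cells, at 514 and 391 CPM against 65.6 and 90.6 CPM in LH. Thinned CD3E-positive cells with a FABP4 UMI were 3.59% and 2.20% in LL, against 0.146% and 1.08% in LH. FHL1 had 67.8 to 97.2 CPM in DCN-rich cells, and its level in LH replicate 1 rested on 4 UMIs. TPM1-high cells without a DCN UMI numbered 385 of 498 and 416 of 464 in LL, against 137 of 140 and 927 of 931 in LH. Neither marker outside the gate passed by stage. CNN1 had 151 and 118 scaled CPM in LL, against 139 and 104 in LH (log2 change 0.18; edgeR adjusted p = 0.924), and SLC25A4 had 955 and 657 in LL, against 455 and 533 in LH (log2 change 0.70; edgeR adjusted p = 0.700). For CNN1 the libraries of LL and LH interleaved, while for SLC25A4 both LL libraries were above both LH libraries without passing the test.

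**Figure D5:**
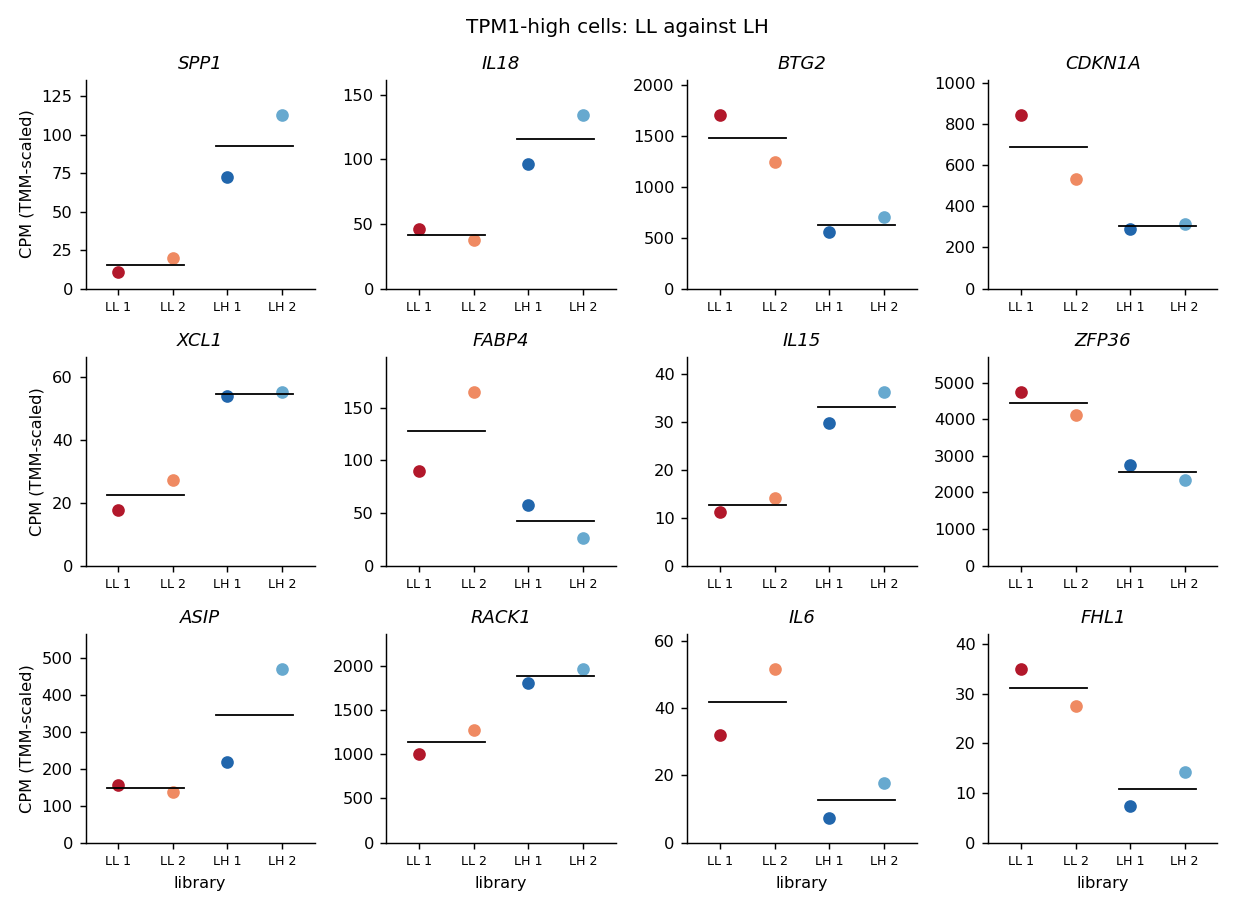
TMM-scaled CPM in TPM1-high cells of each library for the 12 genes with a symbol that had the lowest p among those with at least 20 CPM and no overlap between LL and LH (points, libraries; lines, means of 2). None passed the adjusted threshold: BTG2 had 1714 and 1251 in LL against 559.6 and 701 in LH, and SPP1 had 10.7 and 19.6 in LL against 72.5 and 113 in LH.

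Whether LL against LH differed between TPM1-high and TPM1-low cells was tested as an interaction on 8 sums, with the ewe as a block. 1 of 9419 genes passed (0.0106%), and 319 had an unadjusted p under 0.05. That gene, ENSOARG00000009143, had 163 and 0 CPM in TPM1-high cells of LL and 7.18 and 90.3 CPM in those of LH, against 1672 and 2.43 CPM in TPM1-low cells of LL and 21.0 and 46.1 CPM in those of LH. Its level was carried by LL replicate 1, and the interaction of -4.13 ± 0.39 on the log2 scale (SE; adjusted p by edgeR = 0.000487) was lost without that library (adjusted p = 1), without LH replicate 2 (adjusted p = 0.502), and without cells that had a luminal marker UMI, where it was 0.64 (adjusted p = 1.000). It passed in 13 of 19 settings tried, with adjusted p from 1.59e-57 to 1, and missed also with DESeq2, with thinned cells and with equal numbers of cells.

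No gene with a symbol passed the interaction test (0 of 416 by edgeR and 0 by DESeq2; the unadjusted p was under 0.05 for 17). XCL1 had the lowest p among those named, with log2 ratios of TPM1-high to TPM1-low cells of -1.77 and -1.83 in LL, against -1.32 and 0.58 in LH (interaction -1.73 ± 0.46, SE; edgeR adjusted p = 0.741). Over all settings tried its adjusted p ran from 6.23e-09 to 1, and it passed in 2 of 19, without LH replicate 1 and without a filter. VEGFA, a growth factor for vessels, had ratios of -0.67 and 0.13 in LL, against 0.29 and 0.76 in LH (interaction -0.999; edgeR adjusted p = 1.000), and ABHD5, a co-activator of lipolysis, had 0.43 and 0.15 in LL, against -0.78 and -0.74 in LH (interaction 1.07; edgeR adjusted p = 1.000). The interaction was -0.88 for SLC25A26, the mitochondrial S-adenosylmethionine carrier, 0.60 for ANXA2, a calcium-dependent membrane-binding protein, and -0.98 for ST6GAL1, a sialyltransferase, each with an edgeR adjusted p of 1.000. ANXA2 passed in 1 of 19 settings, without LH replicate 2 (adjusted p = 0.00444; range 0.00444 to 1), where 11 genes with a symbol passed in all. For CNN1 it was -0.25 ± 0.44 (SE; adjusted p by edgeR = 1.000), so the excess of CNN1 in TPM1-high cells, at log2 ratios of 3.12 and 2.46 in LL and 2.31 and 3.42 in LH, was not found to depend on stage with 2 ewes each.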

How the data were processed

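Mammary gland of 4 lactating ewes was profiled with 10x droplet libraries, 1 per ewe, and LL and LH were read from the titles. The deposited values are UMI counts per gene and barcode, made with Cell Ranger (version 5.0.1 per the submitters' processing notes, 7.2.0 per the file headers); STAR and Seurat 3.2.0 are also listed in those notes. The sources used here do not give the genome build. Library totals were 60303230 and 65339993 UMIs in LL and 28015149 and 56178927 in LH, and no barcode had under 500 UMIs. Barcodes with over 20% mitochondrial UMIs (13 genes) were left out: 94 and 145 in LL, 102 and 19 in LH. The gate and the TPM1 threshold were then applied. Doublets were not removed; Scrublet (scanpy 1.11.5) called 3.71% to 4.92% of cells per library and 41 TPM1-high cells, with the mean threshold of the other libraries in LH replicate 1, where its own called 0.

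UMIs were added up over the cells of a group within each library. LL against LH and the interaction used edgeR 4.0.16 in R 4.3.3 (TMM, filterByExpr with a minimum count of 10); DESeq2 1.42.0 was an alternative. These p-values measure the spread between ewes. Intervals of shares are Clopper-Pearson (95%) and reflect counting error alone. TPM1-high and TPM1-low cells were compared by fold within libraries with no test. The edgeR fits were tested on simulated counts. The named genes were the 5 markers, the symbols with the largest and smallest mean ratio (up to 15 each way) among genes past the fold rule, the 12 and 6 lowest p for stage and interaction with at least 20 CPM and no overlap, and up to 4 of the most abundant members of each of 23 gene lists. Members and lists were chosen with earlier results of these data known. Other settings tried are given in the closing section. Of the 774 symbols, 762 were in the supplied reference table and 0 identifiers were, so no coordinates or sequences were used. Results for some genes are not reported here.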

Additional observations from a re-analysis of the deposited data

Results flagged for a closer look

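The interaction of stage and cell group was past the adjusted threshold for ENSOARG00000009143, whose LL against LH change differed between TPM1-high and TPM1-low cells by -4.13 on the log2 scale (edgeR adjusted p = 0.000487; 1 without LL replicate 1; range over the settings tried 1.59e-57 to 1). Most of its UMIs were in LL replicate 1, at 163 CPM in TPM1-high cells and 1672 CPM in TPM1-low cells, and the value was 0.64 (adjusted p = 1.000) without cells that had a luminal marker UMI. The cause was not tested.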

How the results depend on the processing

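Genes past the threshold for LL against LH in TPM1-high cells numbered 3. They were 5 without composition scaling, 18 with DESeq2, 139 without a filter, 10 with equal numbers of cells, 8 with DCN = 0, 5 to 90 when 1 library was left out, and 3 or 4 in the other settings tried. The labels used here give no pairing of libraries by replicate number. The correlation of deviations between same-numbered libraries was 0.0112 over 8591 genes, which cannot show that no pairing existed. With the replicate block 60 genes passed. The interaction count of 1 was 0 with DESeq2, 28 without a filter, 8 with cells thinned to 2000 UMIs, 0 with equal numbers of cells, 0 without cells with a luminal marker UMI, and 0 to 183 when 1 library was left out. The 424 genes past the fold rule became 643 at 5 CPM, 254 at 50 CPM, 167 at 2-fold, 987 by the mean alone and 258 with thinned cells. The share of gated cells, LL minus LH, was -17.7 points at a TPM1 threshold of 5, -20.02 at 20, -16.1 with thinned cells, -22.2 without cells with a luminal marker UMI, -11.9 with FABP4-positive TPM1-low cells left out, and -21.5 to -20.2 when 1 library was left out. The share of kept cells ran from -5.87 to 1.68 points when 1 library was left out. Of the named interactions, VEGFA reversed to 0.010 with equal numbers of cells, ANXA2 to -0.0055 and ENSOARG00000009143 to 0.64 without cells with a luminal marker UMI. The settings that leave out luminal marker cells, leave out FABP4-positive TPM1-low cells or scale the fold comparison by TMM were chosen after the data were seen. The cause of these shifts was not tested. LH replicate 1, with 140 TPM1-high and 85 TPM1-low cells, limited the depth.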
